A study of Triticum aestivum with 3 samples.

Results

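The wheat microRNA families miR1117 to miR1139 are described here through the degradome reads on the transcripts paired with them. A small RNA was taken as a member when its name held miR or MIR followed by a whole number in that range. This gave 36 of the 1233 small RNAs in the tables (2.92%), with 1249 of 12450 pairs of small RNA and transcript (10.03%) and 940 of 7483 transcripts (12.6%). Only 13 of the 23 family numbers in the range occurred, namely 1118, 1120, 1121, 1122, 1123, 1127, 1128, 1130, 1133, 1134, 1135, 1136 and 1137. Of the 36 names 34 carried the wheat prefix tae, 1 the barley prefix hvu and 1 the prefix far.

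The samples were leaves of wheat (Triticum aestivum) seedlings after 2 days of treatment. The 3 treatments were dithiothreitol (DTT) together with tauroursodeoxycholic acid (TUDCA), DTT without TUDCA, and a control, each with 3 independent biological replicates according to the series' design text, so 9 libraries in all. The sample list has 1 entry per treatment, while the tables hold 3 library columns for each, numbered in their headers. DTT breaks disulphide bonds and thereby causes endoplasmic reticulum (ER) stress, while TUDCA, a bile acid, is used as a chemical chaperone. The study set out to find microRNA targets in ER stress.

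MicroRNAs guide Argonaute proteins to transcripts with matching sequence, and in plants a close match usually leads to slicing of the transcript. The 3′ piece that slicing leaves begins with a 5′ monophosphate, and degradome sequencing reads such 5′ ends, whatever process made them. The families considered here were first described from small RNA libraries of wheat, and the hairpins of several of them resemble short inverted-repeat transposons (MITEs), which are common in the wheat genome and lie in and near many genes. Whether a read below arose by slicing or moved with the amount of its transcript was not tested. In whole leaves, fewer cells of a type and less RNA per cell cannot be told apart.

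Going by their names alone, most members differed from a listed sequence. In 30 of the 36 names a substitution was marked (written ss), and 5 names held neither a substitution nor a change of length. The arm suffix p3 or p5 under a name in capitals (MIR) stood on 31 members, and 5 were named miR. The tables pair names with names and hold no small RNA sequence, no cleavage position and no abundance of the small RNAs, so members are given by name alone.

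The transcripts paired with the members were mostly of a kind of id that was rare elsewhere in the tables. Of the 1249 member lines, 877 (70.2%) named a transcript with an EPlTAEG id, 247 (19.8%) one with an id such as Novel11325 (written NovelN here) and 125 (10.01%) one with a Traes id. Outside the range, 6.10% of the 11201 lines had an EPlTAEG id, 15.8% a NovelN id and 74.5% a Traes id. The 36 members thus held 877 of the 1560 EPlTAEG lines of all small RNAs, or 56.2%. Conserved families such as miR156 and miR166, which have 440 small RNAs in the tables, had an EPlTAEG id in 0.143% of their lines and a Traes id in 85.9%. Other wheat and grass families lay between. The EPlTAEG share was 36.4% for the other 74 small RNAs with tae names, 30.8% for the miR9650 to miR9799 families of the Triticeae and 4.41% for the miR5048 to miR5090 families of grasses. No test was run on these shares, because lines of related small RNAs hold the same reads. The sources used here do not annotate EPlTAEG and NovelN ids, so nothing can be said of what these transcripts encode.

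Counted by transcript, the members were paired with 667 of the 960 EPlTAEG transcripts in the tables, 176 of 1248 NovelN and 97 of 5028 Traes transcripts. Among those 97, the chromosome arm in the Traes id placed 35 in the A genome, 28 in the B genome and 34 in the D genome. As shares these were 36.1% A, 28.9% B and 35.1% D for the members, against 34.8% A, 30.4% B and 34.7% D over all Traes transcripts.

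**Figure D1:**
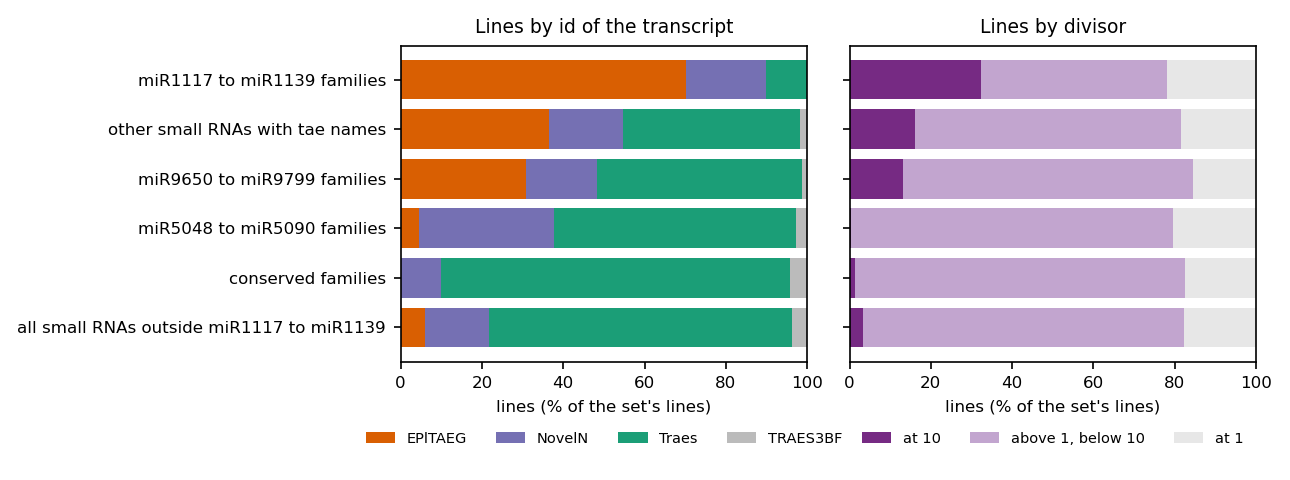
Left, share of lines (%) by the id of the paired transcript, and right, share of lines (%) by the divisor between the raw and the authors' normalized read number, for the members at the top and 5 sets of other small RNAs below (TRAES3BF is an id type that no member line had). EPlTAEG ids made up 70.2% of the member lines and 6.10% of all lines outside the range, and the divisor stood at 10 in 32.4% of the member lines and 3.31% of those outside.

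The label of these families as repeat-associated could be set against only 1 measure in the tables. Each line has a raw read number and a second number, called normalized, that is lower by a divisor of at least 1 and at most 10. In 90.2% of all lines the divisor was a whole number to within 1e-06. That it counts the places to which a read maps is a reading that no header states. The divisor was at its highest value, 10, in 405 of the 1249 member lines (32.4%), against 3.31% of the lines outside the range, and the members held 52.2% of all such lines. The difference followed the id of the transcript. Among EPlTAEG lines the divisor was 10 in 45.4% for the members and 35.7% outside the range, with medians of 7 and 5. The sets most like the members were close to them on EPlTAEG lines. The share was 42.2% (median 7) for the other small RNAs with tae names and 41.7% (median 6) for miR9650 to miR9799. Among NovelN and Traes lines of the members the median divisor was 1, and 59.5% and 56.8% of those lines had a divisor of 1, against 39.8% and 13.8% of the NovelN and Traes lines outside the range. The member lines on NovelN and Traes transcripts therefore had undivided reads more often than other lines with the same ids, a difference that was not tested. Positions in the genome and repeat annotation were not used here.

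The members also named more transcripts each than other small RNAs did. A member was paired with 1 to 208 transcripts, with a median of 14.5 and a mean of 34.7, while small RNAs outside the range had a median of 5, a mean of 9.36 and a highest value of 324. More than 30 transcripts were listed for 13 of 36 members (36.1%) and for 52 of 1197 small RNAs outside the range (4.34%).

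The 10 members with most transcripts were mainly of the 3′ arm. tae-miR1127b-3p_1ss12TC led with 208 transcripts, of which 195 were EPlTAEG. It was followed by tae-MIR1128-p3 with 152 EPlTAEG, 11 NovelN and 1 Traes transcripts. tae-MIR1136-p3_1ss19GA came next with 116, of which 111 were EPlTAEG, and tae-MIR1133-p3_2ss10TC21GC with 107, of which 94 were EPlTAEG. Then came tae-MIR1127a-p3_1ss11CG with 68, tae-MIR1135-p3_1ss21TC with 60 and tae-MIR1122a-p5 with 57. tae-MIR1122c-p3 with 44, tae-MIR1120c-p3_1ss16TA with 41 and hvu-miR1120_L-3 with 40 completed the 10. The 3 members that followed differed in kind. tae-miR1122b-3p_1ss11GT had 36 NovelN ids among its 39 transcripts and tae-MIR1122a-p3_1ss7AG had 33 among its 36. tae-MIR1134-p5_1ss13TG had 31 Traes ids among its 33 transcripts and no EPlTAEG id. At the low end tae-MIR1123-p5_1ss6AG was paired with 1 transcript.

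By the arm in the name, the 14 members of the 3′ arm held 966 lines with 80.4% EPlTAEG ids, and the 20 members of the 5′ arm held 233 lines with 31.3% EPlTAEG ids. The other two members, with 50 lines, name no arm.

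**Figure D2:**
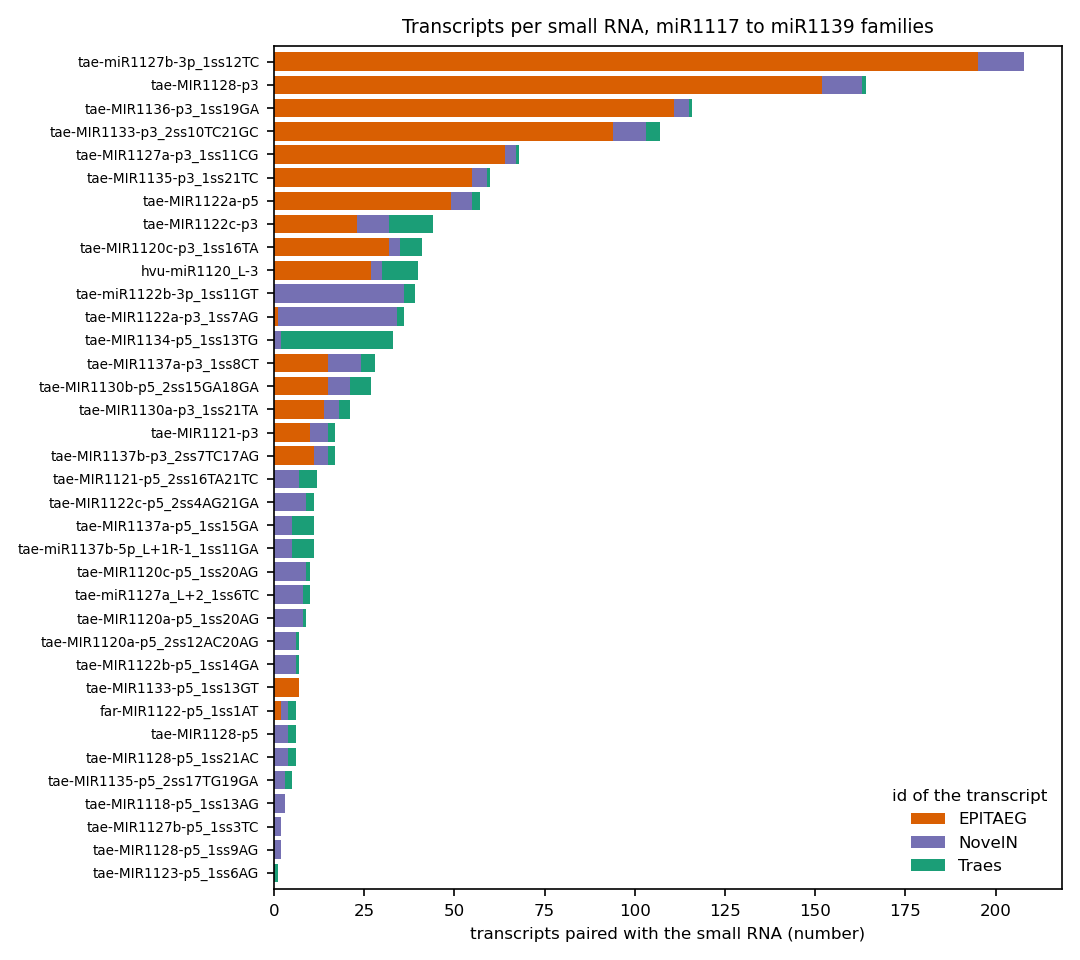
Number of transcripts paired with each of the 36 members (horizontal axis), split by the id of the transcript. Counts ran from 1 to 208, and the members with over 100 transcripts were almost wholly paired with EPlTAEG ids.

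Many transcripts were shared between members. Of the 940 transcripts 720 were paired with 1 member, 220 with at least 2, and 16.6% of all with members of at least 2 families. A small RNA outside the range was also paired with 33.9% of them. tae-MIR1135-p3_1ss21TC and tae-MIR1128-p3 had 40 transcripts in common, which is 66.7% of the transcripts of the MIR1135 member and 24.4% of those of the MIR1128 member. tae-MIR1127a-p3_1ss11CG and tae-miR1127b-3p_1ss12TC shared 43, or 63.2% and 20.7% of their lists. Novel15117 was paired with most members, 9 small RNAs of 4 families. Novel12989 was paired with 7 small RNAs of 3 families.

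Lines with a small RNA or transcript in common and nearly the same reads in the 9 libraries were linked, and each chain of linked lines was counted once, as 1 signal. The 1249 lines formed 435 of the 4574 signals (9.51%), with 2921 of 55312 reads (5.28%). More than 1 line was merged in 245 of the 435 signals, and 55 signals were shared with a small RNA outside the range. Counted by signal, EPlTAEG ids made up 54.9%, NovelN ids 31.3% and Traes ids 13.8%. Counted by read the order changed, with 63.2% of reads on NovelN, 26.5% on EPlTAEG and 10.3% on Traes transcripts. A signal that holds lines of 2 id classes was counted in the class of its line with most reads.

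Reads on the members were few and uneven. The library reads, recovered from the authors' scaling, lay between 11253643 and 13006162. Of the 435 signals 314 (72.2%) had 3 reads or fewer over all 9 libraries, against 61.6% over all signals of the series, and 46 (10.6%) had at least 10, against 15.5%. Reads occurred in all 9 libraries for 9 signals and in 1 library only for 215. The strongest signal held 847 of the 2921 reads (29.0%), the strongest 4 held 38.1% and the 46 with at least 10 reads held 67.3%. Signals seen in a single treatment numbered 116 in DTT with TUDCA, 69 in DTT and 78 in control, and none of them had more than 6 reads. Signals in 1 library or 1 treatment were not counted over the whole series, so these numbers cannot be read as a trait of the members. All signals of the series detected per library averaged 1503 in DTT with TUDCA, 1275 in DTT and 1190 in control.

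Summed over the 435 signals, the members had 292, 271 and 281 reads per 10M library reads in DTT with TUDCA, 247, 245 and 337 in DTT, and 201, 226 and 228 in control. The means were 282 ± 10.3 in DTT with TUDCA, 276 ± 52.3 in DTT and 219 ± 15.4 in control (SD, n = 3 each). Every library of the treatments with DTT lay above every control library, and DTT replicate 3 was the highest of all 9. The signals of the whole series moved too, with 5553 ± 420 reads per 10M in DTT with TUDCA, 4725 ± 954 in DTT and 4452 ± 354 in control. The members' share of these reads was 5.10% ± 0.566 in DTT with TUDCA, 6.18% ± 2.55 in DTT and 4.91% ± 0.122 in control, so it differed between treatments by less than the spread among the DTT libraries. DTT replicate 3 stood apart with a share of 9.10%. Without the strongest signal the sums were 210 ± 26.1 reads per 10M in DTT with TUDCA, 178 ± 20.9 in DTT and 163 ± 19.6 in control, and the DTT and control libraries overlapped. The libraries with TUDCA stayed above control, narrowly, with the lowest at 180.3 and the highest control library at 178.6.

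The number of member signals with at least 1 read was 121, 141 and 134 in DTT with TUDCA, 110, 88 and 95 in DTT and 86, 107 and 102 in control. All 3 libraries with TUDCA lay above the other 6. As a share of all signals detected in the same library, the members made up 8.77% ± 0.195 in DTT with TUDCA, 7.69% ± 0.796 in DTT and 8.25% ± 0.746 in control, and the control libraries overlapped those of both other treatments. These sums were given no test, since the members were chosen with earlier results known.

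**Figure D3:**
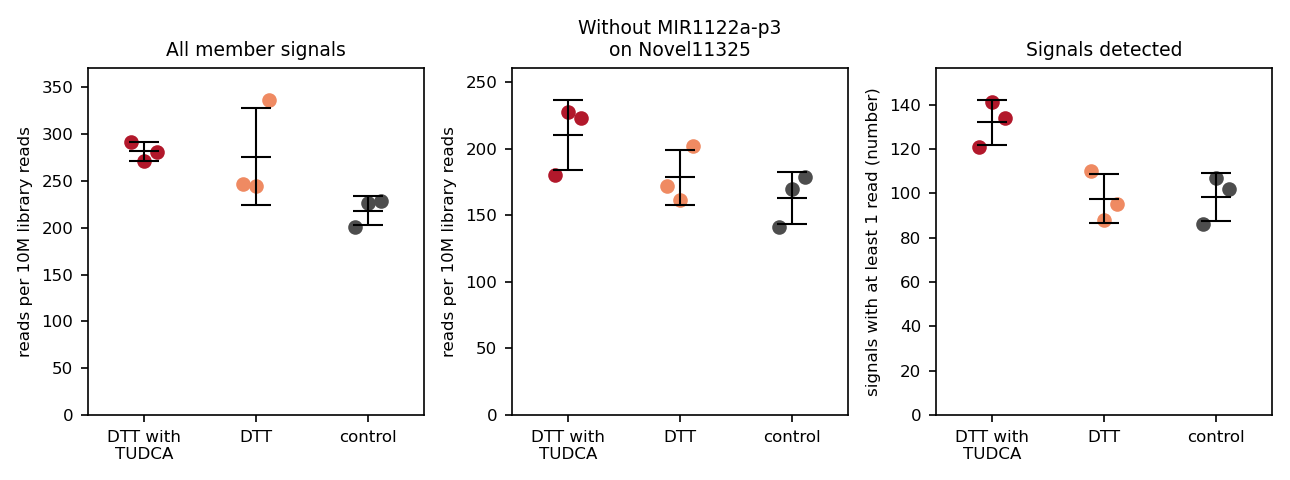
Reads of the member signals per 10M library reads, with and without the strongest signal, and number of member signals with at least 1 read, in DTT with TUDCA, DTT and control. Points are libraries and bars are the mean and SD of 3. Sums of reads averaged 282, 276 and 219 with the strongest signal and 210, 178 and 163 without it.

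Tests were run with edgeR's quasi-likelihood method on the raw reads of all signals that passed a filter on low counts, with Benjamini-Hochberg adjustment over all of them and a threshold of 0.05. Of the 435 member signals 9 passed the filter in at least 1 of the 3 comparisons and 426 in none, so the tests speak for the strongest signals alone. The comparisons share libraries, and each is given by its own values. Between DTT and control 0 of 7 members tested passed the threshold, and 1 had an unadjusted p under it. Over all signals tested there, 3.21% passed, and 26 (16.7%) had an unadjusted p under the threshold. Between DTT with TUDCA and control 1 of 5 members passed, on the higher side, where 9.64% of all signals tested passed in either direction and 8.43% on the higher side. Between DTT with TUDCA and DTT 0 of 8 members passed, and none had an unadjusted p under the threshold. Of all 187 signals tested there 1.07% passed, and 13 had an unadjusted p under the threshold. DESeq2 called no member in any comparison. With library reads as size factors, however, it gave no adjusted p for the 1 signal that passed in edgeR. Limma called 1 member in each of the comparisons against control and none in the third.

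The groups of libraries did not overlap for 2 of the 7 members in DTT against control, where 21.8% of all signals tested were of that kind. The same held for 1 of 5 in DTT with TUDCA against control, against 22.9% of all, and for 3 of 8 in DTT with TUDCA against DTT, against 15.5% of all. For untested signals and family sums no such share was computed. Separations named for them below were read off the values and are descriptions alone. The median log2 fold change of the members was 0.43 in DTT against control, 0.36 in DTT with TUDCA against control and 0.10 in DTT with TUDCA against DTT. Over all signals tested these medians were −0.08, 0.30 and 0.26, so that with library reads as the scale the median signal lay higher in DTT with TUDCA than in either other treatment.

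The member signal that passed belonged to tae-MIR1135-p3_1ss21TC, on a set of transcripts for which EPlTAEG00000003095 stands. It had 8, 11 and 13 reads in DTT with TUDCA, 7, 5 and 7 in DTT, and 1, 1 and 0 in control. Against control it passed the filter on low counts only through the treated libraries, where it was high. Every library of both treatments with DTT lay above every control library, and every library with TUDCA lay above every library with DTT alone. Per 10M library reads, this was 8.36 ± 2.06 in DTT with TUDCA, 4.99 ± 0.869 in DTT and 0.535 ± 0.463 in control (SD, n = 3 each). With 2 reads in all control libraries, the size is best given as a ratio of summed reads with its 95% counting interval. DTT with TUDCA exceeded control 15.1-fold (3.85 to 129.9) with an adjusted p of 0.00585 in edgeR. DTT exceeded control 9.04-fold (2.18 to 80.0), and this did not pass, with an adjusted p of 0.0902. DTT with TUDCA exceeded DTT 1.67-fold (0.918 to 3.12), an interval that holds equality, with an adjusted p of 0.780. After the median of all signals was taken off, the fitted log2 difference of DTT with TUDCA from control was 3.39, a value that depends on edgeR's prior count with so few control reads. The call was lost in DESeq2, where the adjusted p was 0.0731 with its own size factors and not given with library reads, without the filter, where the adjusted p lay just above the threshold, and without replicate 3 of DTT with TUDCA, where it was 0.1201.

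This MIR1135 signal stood on 20 lines, all with EPlTAEG ids and all at the highest divisor, 10. Over these 20 lines the reads ranged from 19 to 32 in DTT with TUDCA, from 16 to 21 in DTT and from 1 to 5 in control. The 20 lines held 41 to 53 reads each, were linked in a chain and were counted once, through the line with most reads. That line had the most reads of the 20 in DTT with TUDCA, 32, and 2 in control. The ratios and the order of libraries given above are those of this line alone. The other 40 lines of tae-MIR1135-p3_1ss21TC formed 11 signals of 1 to 3 reads each, with 13 reads in DTT with TUDCA, 3 in DTT and 4 in control. tae-MIR1135-p5_2ss17TG19GA, the other member of this number, had 14 of its 22 reads on Novel00998. That signal had 0, 4 and 3 reads in DTT with TUDCA, 1, 2 and 1 in DTT and 0, 3 and 0 in control, and the treatments overlapped.

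The strongest member signal was tae-MIR1122a-p3_1ss7AG on Novel11325 and Novel16150. It had 143, 57 and 73 reads in DTT with TUDCA, 94, 105 and 174 in DTT, and 75, 70 and 56 in control. All DTT libraries lay above all control libraries, while DTT with TUDCA overlapped both. Means were 71.2 ± 35.7 reads per 10M in DTT with TUDCA, 97.8 ± 32.5 in DTT and 55.4 ± 5.11 in control. The log2 fold change was 0.82 (SE 0.45, adjusted p 0.342) for DTT against control, 0.36 (SE 0.33, adjusted p 0.575) for DTT with TUDCA against control, and −0.46 (SE 0.46, adjusted p 0.801) for DTT with TUDCA against DTT, all from edgeR. None of the 3 passed. The value for DTT with TUDCA against control rested on replicate 1 of DTT with TUDCA and was −0.12 without it.

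The same small RNA gave 28 further signals, with 27, 29 and 23 reads in DTT with TUDCA, 32, 32 and 70 in DTT and 35, 27 and 44 in control. DTT replicate 3 was the highest library there as well, and 7 of the 11 of these signals with at least 10 reads were highest in that library or tied there. Novel10434 had 11, 6 and 4 reads in DTT with TUDCA, 6, 4 and 16 in DTT and 8, 7 and 9 in control. Novel12786 had 1, 5 and 1 reads in DTT with TUDCA, 3, 10 and 10 in DTT and 6, 3 and 7 in control. Novel04876 had 2, 5 and 1 reads in DTT with TUDCA, 5, 5 and 8 in DTT and 2, 4 and 5 in control. For Novel04876 no library with TUDCA lay above any library with DTT alone, since the highest of the first reached 3.84 reads per 10M and the lowest of the second 3.97. Its log2 fold change of DTT with TUDCA against DTT was −1.15 (SE 0.89, adjusted p 0.780 in edgeR), short of the threshold. For Novel10434 and Novel12786 the treatments overlapped in each comparison.

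The weaker signals of tae-MIR1122a-p3_1ss7AG had between 10 and 32 reads in all and were not tested. Novel02551 had 1, 3 and 5 reads in DTT with TUDCA, 0, 2 and 10 in DTT and 3, 3 and 5 in control. Novel06842 had 1, 0 and 2 reads in DTT with TUDCA, 3, 3 and 4 in DTT and 4, 3 and 1 in control. Novel06177 had 1, 1 and 1 reads in DTT with TUDCA, 3, 1 and 2 in DTT and 3, 1 and 3 in control. In Novel02551 DTT replicate 3 alone held 10 of 32 reads, whereas Novel06842 and Novel06177 were spread over most libraries. In Novel06842 the DTT libraries lay above those with TUDCA. Novel13890 had 1, 0 and 1 reads in DTT with TUDCA, 2, 0 and 3 in DTT and 2, 1 and 3 in control. Novel01713 had 2, 4 and 0 reads in DTT with TUDCA, 2, 0 and 2 in DTT and 0, 0 and 2 in control. Novel03217 had 1, 0 and 1 reads in DTT with TUDCA, 3, 1 and 0 in DTT and 3, 1 and 1 in control. In raw reads the treatments overlapped or tied in these 3. Novel05786 had 3, 1 and 1 reads in DTT with TUDCA, 3, 0 and 0 in DTT and 1, 1 and 0 in control. Novel06164 had 1, 0 and 0 reads in DTT with TUDCA, 0, 2 and 2 in DTT and 2, 1 and 2 in control. Per 10M library reads, Novel06177, Novel13890, Novel03217 and Novel06164 were lower in every library with TUDCA than in any control library. The highest of the first stood at 0.797 and the lowest of the second at 0.809, and these libraries tied at 1 raw read. For Novel06177 the lowest DTT library, at 0.798, was above those with TUDCA too. At such counts a difference between treatments was not detectable.

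Its relatives in the miR1122 family gave further signals. tae-MIR1122c-p3 gave its strongest signal on Novel12989, shared with the candidate small RNA PC-3p-177259_11, with 14, 16 and 19 reads in DTT with TUDCA, 11, 7 and 16 in DTT and 10, 14 and 13 in control. The treatments overlapped, and the log2 fold change in edgeR was 0.51 (SE 0.49, adjusted p 0.801) for DTT with TUDCA against DTT, 0.32 (SE 0.44, adjusted p 0.719) for DTT with TUDCA against control and −0.20 (SE 0.61, adjusted p 0.896) for DTT against control. tae-miR1122b-3p_1ss11GT on Novel15588 had 10, 14 and 13 reads in DTT with TUDCA, 7, 8 and 2 in DTT and 10, 8 and 4 in control. Its libraries with TUDCA lay above those with DTT alone, at 9.64 ± 1.60 and 4.50 ± 2.59 reads per 10M, with 5.997 ± 2.24 in control. The log2 fold change of 1.09 (SE 0.60) between DTT with TUDCA and DTT did not pass, with an adjusted p of 0.752 in edgeR.

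The other signals of tae-miR1122b-3p_1ss11GT with at least 10 reads lay on NovelN transcripts and were weak. Novel17723 had 0, 2 and 0 reads in DTT with TUDCA, 1, 6 and 3 in DTT and 4, 2 and 2 in control. Novel07719 had 1, 3 and 4 reads in DTT with TUDCA, 4, 0 and 1 in DTT and 2, 2 and 2 in control. Novel08215 had 1, 3 and 7 reads in DTT with TUDCA, 4, 0 and 1 in DTT and 1, 0 and 0 in control. In raw reads the treatments overlapped or tied in all 3. Per 10M library reads, Novel17723 reached at most 1.54 in DTT with TUDCA and at least 1.62 in control, libraries that tied at 2 raw reads. Novel08786 had 3, 2 and 1 reads in DTT with TUDCA, 1, 0 and 0 in DTT and 1, 0 and 7 in control. Novel08206 had 3, 2 and 0 reads in DTT with TUDCA, 0, 2 and 0 in DTT and 0, 0 and 7 in control. In both of these control replicate 3 held 7 reads. The single signal of far-MIR1122-p5_1ss1AT with at least 10 reads, on Traes_7BL_4062FFB27, had 1, 0 and 0 reads in DTT with TUDCA, 5, 2 and 8 in DTT and 0, 0 and 1 in control. All DTT libraries lay above the other 6 in this last signal, which did not pass the filter and was chosen for mention among untested signals after its values were seen. Over its 115 signals the miR1122 family had 148 ± 24.9 reads per 10M in DTT with TUDCA, 167.6 ± 47.2 in DTT and 126 ± 11.98 in control.

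**Figure D4:**
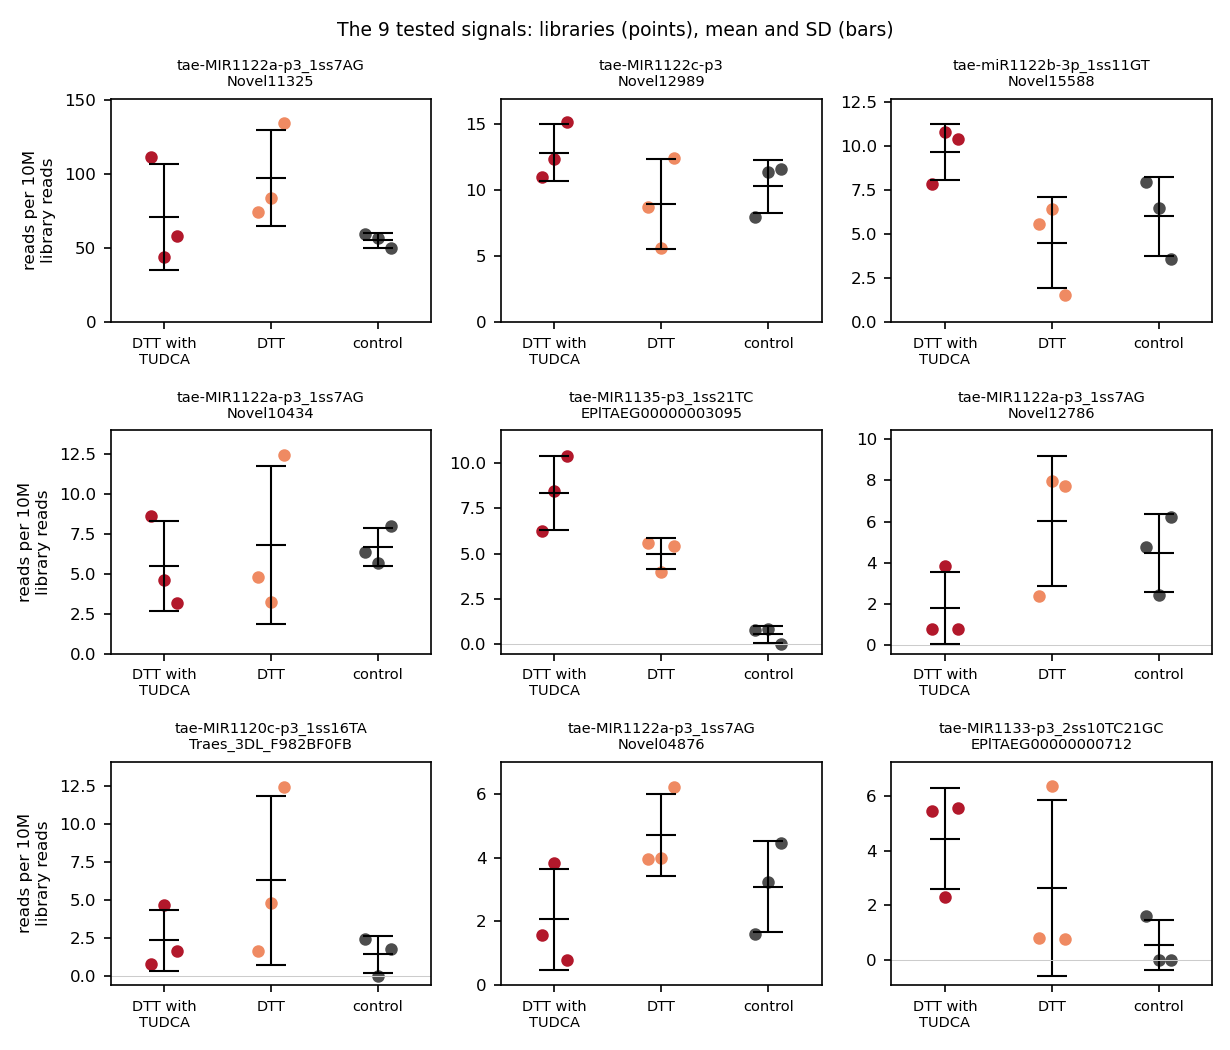
Reads per 10M library reads of the 9 tested member signals in DTT with TUDCA, DTT and control, each panel with its own linear axis. Points are libraries and bars are the mean and SD of 3. The tae-MIR1135-p3_1ss21TC signal (8.36, 4.99 and 0.535 on average) is the only panel in which both treatments with DTT lie clear of control and of each other.

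The miR1120 and miR1130 families met on a shared transcript. Novel12989, the transcript of the leading tae-MIR1122c-p3 signal, also carried tae-MIR1120c-p3_1ss16TA with 0, 4 and 5 reads in DTT with TUDCA, 3, 2 and 2 in DTT and 5, 5 and 2 in control. tae-MIR1130b-p5_2ss15GA18GA had 2, 2 and 5 reads there in DTT with TUDCA, 1, 2 and 2 in DTT and 4, 7 and 2 in control. tae-MIR1130a-p3_1ss21TA had 0, 2 and 1 reads there in DTT with TUDCA, 0, 2 and 0 in DTT and 1, 3 and 4 in control. hvu-miR1120_L-3 had 0, 1 and 3 reads there in DTT with TUDCA, 3, 3 and 0 in DTT and 0, 0 and 0 in control. The unequal counts keep these as separate signals on 1 transcript, whose cleavage positions the tables do not hold. In raw reads no treatment lay clear of another in the first 3 of them. Per 10M library reads, tae-MIR1130b-p5_2ss15GA18GA reached at most 1.60 in DTT and at least 1.78 in control, libraries that tied at 2 raw reads.

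A second such transcript was Traes_7DL_DE178FDB4, paired with 5 members of 4 families. tae-MIR1120c-p3_1ss16TA had 3, 1 and 3 reads there in DTT with TUDCA, 2, 2 and 6 in DTT and 1, 0 and 3 in control. hvu-miR1120_L-3 had 2, 5 and 5 reads there in DTT with TUDCA, 3, 3 and 0 in DTT and 1, 1 and 0 in control. tae-MIR1133-p3_2ss10TC21GC had 3, 0 and 0 reads there in DTT with TUDCA, 1, 0 and 4 in DTT and 0, 0 and 5 in control. For hvu-miR1120_L-3 each library with TUDCA lay above each control library, while the other two signals overlapped throughout.

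Elsewhere in the miR1120 family the strongest signal was tae-MIR1120c-p3_1ss16TA on Traes_3DL_F982BF0FB, with 1, 6 and 2 reads in DTT with TUDCA, 2, 6 and 16 in DTT and 3, 0 and 2 in control. DTT replicate 3 held 16 of its 38 reads, and the log2 fold change of −1.39 (SE 0.87) of DTT with TUDCA against DTT had an adjusted p of 0.752 in edgeR. On EPlTAEG00000006046 the same small RNA had 0, 1 and 0 reads in DTT with TUDCA, 1, 0 and 1 in DTT and 5, 4 and 0 in control. Here control replicates 1 and 2 held most reads. The miR1120 family summed to 20.1 ± 1.87 reads per 10M in DTT with TUDCA, 20.4 ± 9.32 in DTT and 20.3 ± 2.43 in control, means closer than their spread.

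The members of the 1127, 1128, 1133 and 1136 numbers had long lists of EPlTAEG transcripts and few reads on each. Over their families, EPlTAEG ids made up 89.9%, 85.4%, 88.6% and 95.7% of the lines. tae-miR1127b-3p_1ss12TC on EPlTAEG00000006818 had 4, 4 and 0 reads in DTT with TUDCA, 5, 1 and 5 in DTT and 1, 2 and 2 in control. On EPlTAEG00000001518, which stands for 11 lines at divisor 10, it had 3, 2 and 1 reads in DTT with TUDCA, 1, 0 and 2 in DTT and 7, 6 and 0 in control. On EPlTAEG00000000944 it had 0, 0 and 0 reads in DTT with TUDCA, 5, 3 and 0 in DTT and 0, 2 and 0 in control. None of these separated the treatments. The miR1127 family had 25.5 ± 1.86 reads per 10M in DTT with TUDCA, 20.99 ± 6.49 in DTT and 17.1 ± 1.34 in control. Its libraries with TUDCA lay above its control libraries, without a test.

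tae-MIR1133-p3_2ss10TC21GC on EPlTAEG00000000712 had 7, 3 and 7 reads in DTT with TUDCA, 1, 8 and 1 in DTT and 2, 0 and 0 in control. This signal entered 1 test, and DTT with TUDCA differed from DTT by a log2 fold change of 0.73 (SE 0.93, adjusted p 0.877 in edgeR). Each library of DTT with TUDCA lay above each control library, a comparison in which the signal did not pass the filter. The small RNA had 6 more signals of 10 reads or more, 1 of them on Traes_7DL_DE178FDB4. EPlTAEG00000000770 had 2, 4 and 1 reads in DTT with TUDCA, 6, 1 and 1 in DTT and 0, 3 and 3 in control. EPlTAEG00000004166 had 1, 2 and 0 reads in DTT with TUDCA, 1, 0 and 2 in DTT and 5, 5 and 2 in control. EPlTAEG00000003391 had 0, 3 and 1 reads in DTT with TUDCA, 0, 0 and 5 in DTT and 0, 4 and 0 in control. In EPlTAEG00000004166 each control library was at or above every other library, while in EPlTAEG00000000770 and EPlTAEG00000003391 the treatments overlapped. EPlTAEG00000001761 had 0, 0 and 2 reads in DTT with TUDCA, 2, 0 and 1 in DTT and 5, 0 and 0 in control. EPlTAEG00000008409 had 2, 0 and 3 reads in DTT with TUDCA, 1, 2 and 0 in DTT and 0, 2 and 0 in control. The miR1133 family summed to 17.8 ± 2.28 reads per 10M in DTT with TUDCA, 19.2 ± 4.96 in DTT and 16.9 ± 2.26 in control, so the treatments did not separate.

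tae-MIR1128-p3 on EPlTAEG00000001346 had 4, 3 and 9 reads in DTT with TUDCA, 0, 3 and 0 in DTT and 1, 0 and 0 in control. Each library with TUDCA lay above each control library, but the signal was too weak for the test. tae-MIR1136-p3_1ss19GA had most reads on Novel02293, with 2, 2 and 4 in DTT with TUDCA, 1, 1 and 0 in DTT and 0, 2 and 2 in control. On Novel02293 each library with TUDCA lay above each DTT library, while control overlapped both, without a test. The miR1128 family had 13.5 ± 4.54 reads per 10M in DTT with TUDCA, 11.4 ± 6.86 in DTT and 9.76 ± 4.36 in control. The miR1136 family had 8.08 ± 0.338 in DTT with TUDCA, 6.88 ± 5.19 in DTT and 4.18 ± 1.06 in control. DTT replicate 3 was low in both, with 6 reads for miR1128 and 2 for miR1136. For miR1136 each library of DTT with TUDCA lay above each control library, without a test.

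tae-MIR1134-p5_1ss13TG was the member paired mainly with Traes transcripts. Its strongest signal, on Traes_5BL_8D0DC9F06, had 2, 5 and 3 reads in DTT with TUDCA, 4, 18 and 3 in DTT and 1, 0 and 4 in control. DTT replicate 2 held 18 of the 40 reads, and the signal passed the filter in no comparison. Over its 19 signals the small RNA had 11.2 ± 2.63 reads per 10M in DTT with TUDCA, 9.26 ± 6.15 in DTT and 4.41 ± 1.97 in control.

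The remaining numbers had few reads. tae-MIR1137a-p3_1ss8CT on Novel12219, shared with osa-MIR812q-p3_1ss20TG, had 3, 12 and 5 reads in DTT with TUDCA, 1, 0 and 0 in DTT and 3, 0 and 1 in control. Its libraries with TUDCA lay above those with DTT alone, with replicate 2 of DTT with TUDCA holding 12 of 25 reads. tae-MIR1121-p3 on Novel04929 had 2, 7 and 1 reads in DTT with TUDCA, 3, 1 and 5 in DTT and 1, 1 and 1 in control. tae-MIR1118-p5_1ss13AG on Novel13397 had 0, 2 and 1 reads in DTT with TUDCA, 3, 0 and 0 in DTT and 3, 4 and 1 in control. In the MIR1121 and MIR1118 signals the treatments overlapped or tied. The only signal of tae-MIR1123-p5_1ss6AG had 5 reads in all 9 libraries together.

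Some members had no read at all in the DTT libraries. These were 5 of the 36 small RNAs, namely tae-MIR1120a-p5_1ss20AG, tae-MIR1120a-p5_2ss12AC20AG, tae-MIR1120c-p5_1ss20AG, tae-MIR1137a-p5_1ss15GA and tae-miR1137b-5p_L+1R-1_1ss11GA. All are of the 5′ arm, none is paired with an EPlTAEG transcript, and the names of 1 number share most of their reads. Together they hold 18 signals on 21 transcripts, with 5, 4 and 5 reads in DTT with TUDCA, 0, 0 and 0 in DTT and 3, 6 and 9 in control. A count of 0 over the 3 DTT libraries allows up to 3 reads, or 0.789 per 10M, for counting error only. Of the 21 transcripts 4 had reads in DTT with another small RNA of the tables. None of the 36 members was without reads in DTT with TUDCA or in control. Over all 1233 small RNAs, 15.4% had no read in DTT with TUDCA, 19.5% none in DTT and 20.2% none in control, so the 13.9% among the members in DTT is not above the level of the series. tae-MIR1122c-p5_2ss4AG21GA came close, with 3, 5 and 5 reads in DTT with TUDCA, 0, 0 and 1 in DTT and 2, 4 and 6 in control. These small RNAs were picked for their zeros, and the pattern is given as a description with no test.

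A second view, chosen after the data were seen, sums the authors' normalized read numbers over all lines of a small RNA and tests the rounded sums over all small RNAs with edgeR. It keeps lines of 1 small RNA together, but reads shared by several small RNAs count in each. In DTT against control 0 of 10 members tested passed, and 2 had an unadjusted p under the threshold. Of all 331 small RNAs tested there 0% passed, and 41 (12.4%) had an unadjusted p under the threshold. In DTT with TUDCA against control 1 of 14 members passed, where 12.8% of all 344 small RNAs passed in either direction and 12.2% on the higher side. In DTT with TUDCA against DTT 0 of 15 members passed, and 1 had an unadjusted p under the threshold. Of all 326 tested there 0% passed, and 8 (2.45%) had an unadjusted p under the threshold. At the adjusted threshold the members' calls were no more frequent than those of the whole table.

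The member called was tae-MIR1135-p3_1ss21TC, largely on the reads that gave the call above. Its summed normalized numbers were 14, 26 and 23.65 in DTT with TUDCA, 14, 12.5 and 12 in DTT and 1.86, 5 and 3 in control. Both treatments with DTT lay above control in every library. The log2 fold change was 2.55 (SE 0.55, adjusted p 0.000198) for DTT with TUDCA against control, 1.82 (SE 0.75, adjusted p 0.183) for DTT against control and 0.73 (SE 0.53, adjusted p 0.782) for DTT with TUDCA against DTT, all in edgeR. Its leading reads are divided by 10 and listed on 20 lines, so that the sum counts them up to 2 times. The test takes these repeated reads as separate counts, so its adjusted p is no separate support for the call.

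In hvu-miR1120_L-3 and tae-MIR1134-p5_1ss13TG each library of DTT with TUDCA lay above each control library. Per 10M library reads the same held for tae-MIR1122c-p3, tae-miR1122b-3p_1ss11GT and tae-MIR1136-p3_1ss19GA. None of these passed. The share of such separations over all small RNAs tested was not computed, so they are descriptions alone. hvu-miR1120_L-3 had 6, 9 and 11 in DTT with TUDCA, 8.67, 10 and 6 in DTT and 3, 2.67 and 1 in control, so its DTT libraries lay above control as well. The log2 fold change of 1.76 (SE 0.79) for DTT with TUDCA against control had an adjusted p of 0.140, and that of 1.72 (SE 0.85) for DTT against control had one of 0.355, both in edgeR. tae-MIR1134-p5_1ss13TG had 6, 9.69 and 9.25 in DTT with TUDCA, 4.25, 6.67 and 2.19 in DTT and 4, 2.17 and 1.31 in control, with a log2 fold change of 1.71 (SE 0.80, adjusted p 0.164 in edgeR) for DTT with TUDCA against control. tae-MIR1137a-p3_1ss8CT had 4, 20 and 8.67 in DTT with TUDCA, 5, 0 and 3 in DTT and 3, 4 and 2 in control, and the treatments overlapped. For it the log2 fold change of 1.98 (SE 0.75) between DTT with TUDCA and DTT had an adjusted p of 0.782 in edgeR.

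**Figure D5:**
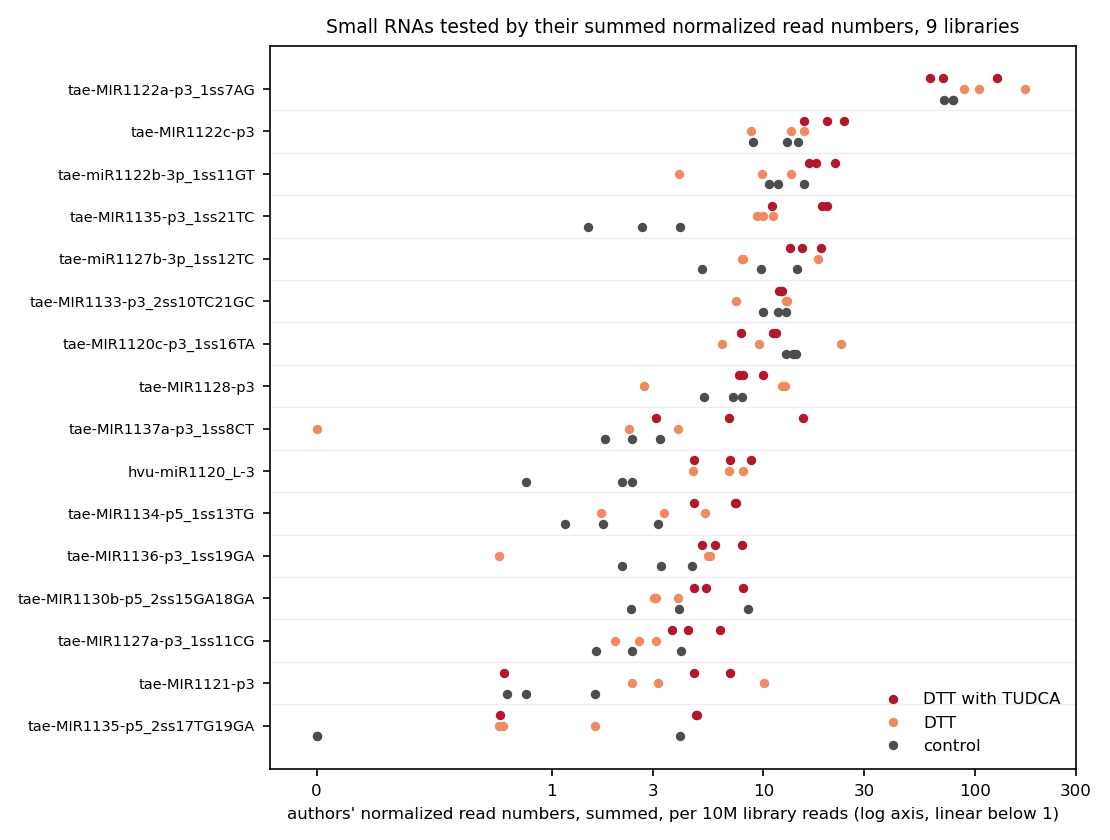
Authors' normalized read numbers summed over the lines of each tested member, per 10M library reads (log axis, linear below 1), with 1 point per library for DTT with TUDCA, DTT and control. For tae-MIR1135-p3_1ss21TC and hvu-miR1120_L-3 the control points lie below all others. In the other members shown, control points overlap those of DTT with TUDCA, of DTT or of both.

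In the authors' deposited table of DTT with TUDCA against control, 582 of 1037 member lines are marked up and 455 down, where 5655 of all 10575 lines are up. In the authors' deposited table of DTT against control these counts are 386 up and 451 down of 837 member lines, where 4440 of all 9651 lines are up. In the authors' deposited table of DTT with TUDCA against DTT they are 588 up and 402 down of 990 member lines, where 5965 of all 10375 lines are up. The authors' deposited tables give no log2 ratio where 1 of the treatments has no read. In the authors' deposited tables this holds for 79.0% of the member lines, against 61.2% of all lines, in DTT with TUDCA against control, for 71.2%, against 58.9%, in DTT against control, and for 79.3%, against 59.2%, in DTT with TUDCA against DTT. Most of these marks therefore rest on reads in a single treatment. They are counted by line, so that reads listed on several lines count more than once.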

How the data were processed

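Degradome sequencing of wheat leaves gave 9 libraries, and the authors deposited 3 tables, each comparing a pair of treatments by small RNA and transcript. Per the file headers each line holds raw read counts per library. The deposited second number, called normalized, behaves as an expected count, lower than the raw one by a divisor. The authors' signal, headed TPB, is that number scaled per library, from which the library reads were recovered, and the deposited log2 ratio compares mean TPB. Neither mapper nor caller nor build is given in the sources used here. The number of unused columns of per-sample values is 0.

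Of 12453 pairs, 3 listed more than once were left out. A pair of lines sharing a small RNA or transcript was linked where the absolute differences of its counts, added over the 9 libraries, did not exceed 20% of the reads of the larger one. Linked lines were chained into signals, so lines of 1 signal can differ by more, and each signal is represented by its line with most reads. Signals that passed edgeR's filter (minimum count 5, minimum total 10) were tested with edgeR 4.0.16 (R 4.3.3), using the recovered library reads as library sizes without additional scaling. DESeq2 1.42.0 and limma 3.58.1 (log2 of reads per 10M plus 1) were alternatives. Every signal that was tested or had at least 10 reads is named, as are the family numbers found and the 10 members with most transcripts. Members and lists were chosen with earlier results of these data known. Replicate numbers come from the column headers. Libraries were not paired by them. P-values measure the spread between 3 libraries per treatment, and intervals cover counting error only, since PCR reads are not independent molecules.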

Additional observations from a re-analysis of the deposited data

How the results depend on the processing

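Depth limits these results, since 426 member signals were too weak to test. Between DTT with TUDCA and DTT no alternative gave a member call (0 throughout). Between DTT and control the count of 0 became 1 with limma, 2 with merging at 5% and 1 with merging of identical lines only, and it stayed 0 without any 1 library. Between DTT with TUDCA and control the count of 1 became 0 in DESeq2 with either scaling and 0 without the filter. In DESeq2 with library reads the signal got no adjusted p, so that 0 is a missing result. The count became 10 with merging at 5%, 10 with merging of identical lines and 10 with every line by itself, all on reads of tae-MIR1135-p3_1ss21TC. Leaving out 1 library gave 0 to 1, the 0 without DTT with TUDCA replicate 3. Limma's adjusted p for this signal in DTT against control was 0.0492, at a log2 fold change of 2.01. Same-numbered libraries did not deviate together (r between −0.22 and 0.12 over 221 signals), and a replicate block left the counts at 0, 1 and 0. Some log2 fold changes short of the threshold changed sign. That of tae-MIR1122a-p3_1ss7AG on Novel11325 in DTT with TUDCA against control ranged from −0.12 (without DTT with TUDCA replicate 1) to 0.62 on leaving out 1 library. That of tae-MIR1122c-p3 on Novel12989 in DTT against control was 0.080 in DESeq2 with its own size factors, and it ranged from −0.51 to 0.043 (without DTT replicate 2) on leaving out 1 library.

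Reads per 10M in DTT with TUDCA, DTT and control became 433, 398.7 and 273 with merging at 5%, 454, 407 and 288 with merging of identical lines, and 210, 178 and 163 without the strongest signal, an alternative chosen after seeing the data. The sum in DTT with TUDCA became 257 where the line with most reads had to be a member. Detected signals became 171.3, 136 and 124 with merging at 5% and 174, 138 and 127 with merging of identical lines. Id shares by signal were 13.8% Traes, 54.9% EPlTAEG and 31.3% NovelN. Fewer merged lines mean that the same reads are counted more often.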
